A study of Mus musculus with 2 samples.

Results

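Islands at 10 nuclear receptor genes were examined in a chromatin map of the transcription factor TCF-1 in lymphoid tissue inducer (LTi) cells, innate lymphoid cells that take part in forming lymph nodes and Peyer's patches. The 10 genes were taken by name, out of 21887 protein-coding genes: Nr4a1, Nr4a2 and Nr4a3 of the NR4A family, the glucocorticoid receptor gene Nr3c1, the retinoid receptor genes Rara, Rarg, Rxra and Rxrb, the vitamin D receptor gene Vdr, and Nr1h2, which encodes the oxysterol receptor LXR beta. An island, a stretch of clustered reads, was assigned to a gene when at least 1 bp of it lay in the RefSeq gene body or within 10 kb on either side. By that rule 34 of the 19531 islands belonged to these genes.

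The map was made by ChIC-seq, in which an antibody tethers micrococcal nuclease to a chromatin protein and the DNA fragments released by the cut are sequenced. The antibody recognised TCF-1, an HMG-box factor encoded by Tcf7. Of the 2 samples, each of 500 formaldehyde-fixed C57BL/6 mouse cells, 1 held Tcf7+/+ cells of Peyer's patches, and 1 held Tcf7fl/fl-VavCre cells of the small intestine lamina propria. Vav-Cre is active across blood cell lineages, so the deletion is not restricted to LTi cells. Both were sorted as lineage-negative CD127+ CCR6+ cells without KLRG1, NK1.1 or NKp46, and the age of the mice is not given in the sources used here. Genotype and tissue changed together with 1 library each, so their effects cannot be told apart and no difference has a replicate check.

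The table gives, for each island, whole reads of a peak and of a control library, and its header ties neither to a sample. Values are therefore stated as peak-library versus control-library reads, and none is read as an effect of Tcf7 loss. The islands held 483771 peak-library and 189291 control-library reads, and reads outside islands were not analysed here. The enrichment (fold) of an island is the ratio of peak to control reads after multiplying the control reads by 1.997, the factor recovered from the authors' folds. FDR values are those of the authors' deposited table, and an island is said to pass when its FDR is 0.05 or less. The 95% intervals are exact (Clopper-Pearson, conditional on the reads of both libraries) and cover counting error only, since no library had a replicate. Reads copied by PCR are not independent molecules, so the intervals may be too narrow. Islands are called where peak-library reads cluster, so their peak-library counts were selected to be high. The enrichments, intervals and binomial p-values are not corrected for that selection. Among marker genes, all 10 LTi and group 3 innate lymphoid cell genes, all 6 B cell genes and 2 of 6 epithelial genes had an island, against 54.7% of all protein-coding genes, with none at Epcam or Vil1. Islands record cutting near a gene, not its expression.

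Nuclear receptors are transcription factors with a zinc finger domain that binds DNA and, in most of them, a pocket that binds a small lipophilic ligand. The retinoic acid receptors (Rara, Rarg), the vitamin D receptor and LXR beta bind DNA as heterodimers with a retinoid X receptor (Rxra, Rxrb), whereas the glucocorticoid receptor binds as a homodimer and moves to the nucleus with its hormone. NR4A receptors are immediate-early gene products whose activity is set mainly by how much of them is made. In the gut, retinoic acid made from dietary vitamin A is known to support the maturation of LTi cells and the homing of lymphocytes.

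The sequences just upstream of 8 transcription starts are shown first, since the islands below are described by whether they cover a start. Each is the 250 bases before a RefSeq start of GRCm38.p6 (mm10), for Rxrb only the 121 that lie beyond the neighbour Slc39a7, 5′ to 3′ on the gene's strand. Capitals mark, on either strand, the GC box GGGCGG, the receptor half-site AGGTCA and the NR4A element AAAGGTCA, which contains the half-site. These 6 starts lay under an island:
Nr4a1, chr15:101266596-101266845, plus strand: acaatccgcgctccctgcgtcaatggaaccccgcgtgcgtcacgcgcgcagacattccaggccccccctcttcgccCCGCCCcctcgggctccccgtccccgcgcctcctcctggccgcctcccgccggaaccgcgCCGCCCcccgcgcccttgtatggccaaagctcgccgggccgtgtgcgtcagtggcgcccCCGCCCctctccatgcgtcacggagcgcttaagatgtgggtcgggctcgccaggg
Nr4a3, chr4:48045055-48045304, plus strand: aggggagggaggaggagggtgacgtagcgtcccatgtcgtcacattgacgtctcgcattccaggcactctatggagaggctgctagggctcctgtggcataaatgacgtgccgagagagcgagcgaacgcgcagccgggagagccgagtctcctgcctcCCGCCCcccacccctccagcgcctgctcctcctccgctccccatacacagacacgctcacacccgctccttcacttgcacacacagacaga
Rara, chr11:98937446-98937695, plus strand: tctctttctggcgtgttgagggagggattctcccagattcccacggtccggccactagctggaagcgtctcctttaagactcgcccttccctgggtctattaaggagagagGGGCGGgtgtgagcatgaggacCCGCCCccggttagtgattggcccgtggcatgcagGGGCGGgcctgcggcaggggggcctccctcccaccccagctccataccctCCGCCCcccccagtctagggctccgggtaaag
Rarg (internal start), chr15:102246501-102246750, minus strand: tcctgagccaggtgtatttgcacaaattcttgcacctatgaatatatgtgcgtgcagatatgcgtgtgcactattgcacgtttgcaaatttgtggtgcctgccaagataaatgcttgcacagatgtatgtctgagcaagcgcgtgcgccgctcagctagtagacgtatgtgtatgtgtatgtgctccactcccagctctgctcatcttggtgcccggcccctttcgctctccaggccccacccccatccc
Rxrb, chr17:34031691-34031811, plus strand: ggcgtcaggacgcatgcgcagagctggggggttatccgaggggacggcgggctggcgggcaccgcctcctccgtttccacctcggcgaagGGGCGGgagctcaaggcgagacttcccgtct
Nr1h2, chr7:44553966-44554215, minus strand: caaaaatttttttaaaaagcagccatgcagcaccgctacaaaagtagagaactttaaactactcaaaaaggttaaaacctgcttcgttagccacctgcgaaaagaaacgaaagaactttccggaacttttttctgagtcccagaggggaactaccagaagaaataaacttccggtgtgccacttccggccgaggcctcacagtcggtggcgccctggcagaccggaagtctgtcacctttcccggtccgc

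These 2 starts lay under no island and are shown for contrast. Nr4a2 was taken because its islands had the highest pooled enrichment, and Rxra because it had no island. Only the internal Rxra start, with the AAAGGTCA element, is printed. The outer Rxra start at 27677201, also under no island, is left out. The bases before that outer start were 81.2% G or C and held GC boxes. Those before the internal start were 55.2% G or C and held no GC box. The 2 sequences are:
Nr4a2, chr2:57124004-57124253, minus strand: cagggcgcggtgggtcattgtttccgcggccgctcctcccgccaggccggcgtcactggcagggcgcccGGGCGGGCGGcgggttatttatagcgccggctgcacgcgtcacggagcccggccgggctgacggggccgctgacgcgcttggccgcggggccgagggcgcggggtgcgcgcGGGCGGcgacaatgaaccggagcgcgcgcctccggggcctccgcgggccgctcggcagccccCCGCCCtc
Rxra (internal start), chr2:27709042-27709291, plus strand: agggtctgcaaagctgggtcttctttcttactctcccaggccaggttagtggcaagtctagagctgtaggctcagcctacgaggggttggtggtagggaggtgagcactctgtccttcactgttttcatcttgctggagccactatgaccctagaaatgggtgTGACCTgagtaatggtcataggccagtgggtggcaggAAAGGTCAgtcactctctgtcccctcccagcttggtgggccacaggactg

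The RefSeq windows, which run from 250 bases before to 50 bases after a start, numbered 15 for 9 of the 10 genes, and 2 of the 4 Rara windows overlap. No window was used for Nr3c1. The TCF core CTTTGA was in 0 of the 15 windows, against 14.4% of 21263 windows of protein-coding genes. The half-site AGGTCA was in 3 of 15, against 14.7%. Its longer form AAAGGTCA was in 1 window, at the internal Rxra start from base -50 to base -43, against 1.3% of all windows. GC boxes were in 11 of 15 windows, against 46.2%. The cyclic AMP element TGACGTCA and the CArG box bound by SRF were in 0, against 2.23% and 1.52%. All motifs were searched on both strands. A match is a description of letters, and these windows hold little of the islands' sequence.

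Islands were found at 9 of the 10 receptor genes, against 54.7% of all protein-coding genes, and 7 of the 10 had a passing island, against 40.3%. Locus lengths ran from 24.4 kb (Nr1h2) to 128.9 kb (Nr3c1), and these shares were not adjusted for it. The 10 genes were chosen with earlier results of these data known, so these shares do not test an excess over the background. Read island by island, the receptors stood near the background: 20 of their 34 islands (58.8%) passed, against 62.5% of all islands, and 6 passed an FDR of 1e-05, against 20.7%. At that stricter FDR 4 genes had an island (Nr4a1, Nr4a2, Nr3c1 and Rara), against 15.8% of genes. The islands were 400 to 5200 bp wide and held 9 to 60 peak-library reads (median 20) and 0 to 39 control-library reads (median 5.5). Their 767 versus 266 reads gave a pooled enrichment of 1.44 (1.25 to 1.67), beside 1.62 (1.61 to 1.63) for the 19513 nuclear islands that hold under 200 peak-library reads. An exact conditional binomial test, two-sided, which counts the error of both libraries, passed 0 of the 34 after Benjamini-Hochberg adjustment over all islands, against 0.374%. It gave 7 at an unadjusted p below 0.05, against 18.5%, and its smallest adjusted p was 0.118.

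**Figure D1:**
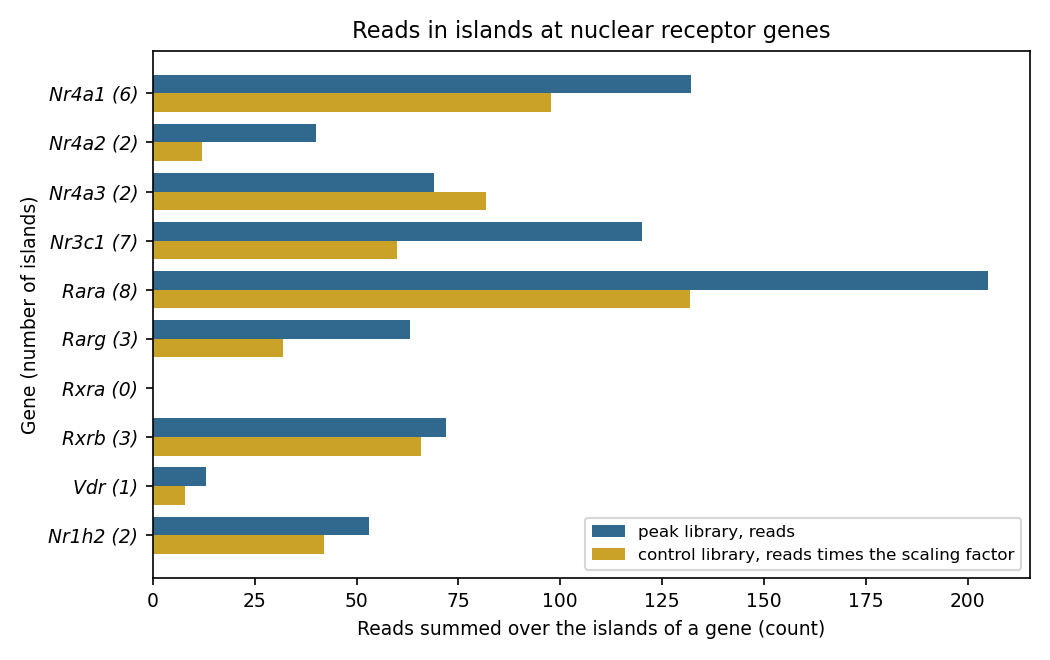
Reads summed over the islands of each of the 10 receptor genes (horizontal axis, count), for the peak library and for the control library after multiplication by the scaling factor, with the number of islands beside each name; there is 1 library of each kind and no error bar. Rara has the most reads, 205 in the peak library, Rxra has none, and Nr4a3 is the 1 gene whose scaled control bar is the longer.

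The NR4A genes, which are switched on within minutes of receptor and calcium signals, carried 10 islands, of which 6 passed. Their pooled enrichments ran from the lowest to the highest of the 9 receptor genes with islands. Nr4a1, which encodes Nur77, lies on chromosome 15 at 101253902 to 101274795 and had 6 islands with 132 versus 49 reads, a pooled enrichment of 1.35 (0.965 to 1.91). Of the 6 islands 2 had 1 control read each, and the other 4 had 7 to 18. The island with the lowest FDR (1.28e-11) was at 101244001 to 101245400, 8502 bp before the gene, with 18 versus 1 reads and an enrichment of 9.01 (1.42 to 376). A second, at 101262401 to 101263600 inside the gene body, had 13 versus 1 reads and an enrichment of 6.51 (0.978 to 277). The island with the most peak-library reads, at 101246201 to 101248400, had 34 versus 11 reads and an enrichment of 1.55 (0.766 to 3.39).

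The Nr4a1 start at 101266846, whose upstream sequence with 3 GC boxes is printed above, lay under an island with 16 versus 7 reads, an enrichment of 1.14 (0.446 to 3.29). The RefSeq gene body begins upstream of it, and an island over that outer end had 26 versus 11 reads and an enrichment of 1.18 (0.565 to 2.65). The sixth island lay over the start of the neighbour Atg101, an autophagy gene, with 25 versus 18 reads and an enrichment of 0.696 (0.365 to 1.35). Of these 6 islands 3 passed, and none of those 3 covered a start.

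Nr4a2, which encodes Nurr1, lies on chromosome 2 at 57106830 to 57124003. It had 2 islands, both inside the gene and both passing, with 40 versus 6 reads and a pooled enrichment of 3.34 (1.41 to 9.64). Both islands also lay within 10 kb of the protein-coding gene model LOC105244150. The island at 57115401 to 57118000 had 27 versus 4 reads, an enrichment of 3.38 (1.18 to 13.3), and that at 57120601 to 57122000 had 13 versus 2 reads, an enrichment of 3.26 (0.737 to 29.7). The start was not covered, the nearer island ending 2003 bp into the gene. Nr4a3, which encodes NOR-1, lies on chromosome 4 at 48045078 to 48086447 and showed the other arrangement. Its start lay under the widest and most read-rich island of the 10 genes, 5200 bp at 48041601 to 48046800, with 60 versus 39 reads and an enrichment of 0.770 (0.506 to 1.18). A 400 bp island 30.1 kb into the gene had 9 versus 2 reads, an enrichment of 2.25 (0.466 to 21.4) and an FDR of 0.0155. Together they gave 0.843 (0.565 to 1.27), the only pooled enrichment below 1 among the 9 genes with islands. The intervals of Nr4a2 and Nr4a3 did not overlap with this locus and all islands, but they did with 50 kb on either side (Nr4a2 from 1.41, Nr4a3 up to 1.43) and with islands of at least 20 peak-library reads (from 1.178, up to 1.184).

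Nr3c1, the glucocorticoid receptor gene, lies on chromosome 18 at 39410545 to 39519421 and had 7 islands, of which 5 passed. They held 120 versus 30 reads, a pooled enrichment of 2.003 (1.33 to 3.10). All 7 touched the gene body and 0 lay in the part of the gene below its midpoint. The island at 39519001 to 39521200 crossed the end of the gene at the higher coordinate, with 22 versus 7 reads and an enrichment of 1.57 (0.649 to 4.36). The other 6 lay within 24.4 kb of each other in the gene interior, 21.8 kb from that end, with 98 versus 23 reads. The lowest FDR (2.19e-14) was that of the island at 39489201 to 39490200, with 13 versus 0 reads. Against a floor of 3 control reads its ratio was 2.17, and the exact 95% lower bound was 1.53. The island at 39480601 to 39483000 had 22 versus 5 reads, an enrichment of 2.204 (0.814 to 7.45). No other protein-coding gene lay within 10 kb of any of the 7.

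The retinoid receptor genes carried 14 islands, 8 of them passing, unevenly spread over the 4 genes. Rara, which encodes retinoic acid receptor alpha, lies on chromosome 11 at 98927800 to 98974942 and had 8 islands, a number that 0.544% of protein-coding genes exceeded. They held 205 versus 66 reads, a pooled enrichment of 1.56 (1.17 to 2.09), and 5 passed. The lowest FDR was that of an 800 bp island at 98929401 to 98930200, inside the gene body, with 13 versus 0 reads, at least 2.17-fold higher against the floor of 3 control reads and with an exact lower bound of 1.53. The island at 98961401 to 98964400, which ends 472 bp before the most downstream Rara start, had 29 versus 3 reads, an enrichment of 4.84 (1.501 to 24.8) and the smallest unadjusted binomial p of the 34 (0.00244, exact). The island with the most reads, at 98940201 to 98944400, had 57 versus 20, an enrichment of 1.43 (0.845 to 2.51).

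At the Rara starts 98937696 and 98937718 the covering island, 98935401 to 98939600, had 39 versus 20 reads and an enrichment of 0.977 (0.556 to 1.77). A further start, 98939711, lay 111 bp beyond that island, and the gene model Gm46294 lies in the same stretch. Upstream of Rara, 2 islands inside the replication gene Cdc6 had 11 versus 6 and 19 versus 10 reads, with enrichments of 0.918 and 0.952, and an island between Cdc6 and Rara had 23 versus 4 reads, an enrichment of 2.88 (0.984 to 11.5). With islands within 10 kb of another protein-coding gene left out, the pooled enrichment of Rara was 3.59 (1.52 to 10.3). That value rests only on the islands beginning at 98954401 (14 versus 3 reads) and 98961401 (29 versus 3 reads). The island over the Rara starts was among those left out, because of Gm46294.

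Rarg, which encodes retinoic acid receptor gamma, lies on chromosome 15 at 102234938 to 102257522 and had 3 islands, all passing, with 63 versus 16 reads and a pooled enrichment of 1.97 (1.13 to 3.66). The one with the lowest FDR (6.82e-05) and the most reads lay inside the gene at 102243201 to 102245600, with 25 versus 5 reads and an enrichment of 2.504 (0.942 to 8.38). Next to it, the island over the internal start at 102246500 had 22 versus 6 reads and an enrichment of 1.84 (0.722 to 5.54). The outer start at 102257522 was 10322 bp from the nearest island. The third island, with 16 versus 5 reads, lay 9138 bp outside Rarg and inside Itgb7, the gene for the integrin subunit used in homing to the gut.

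The retinoid X receptors, shared partners of the other receptors, differed in whether they had an island at all. Rxra lies on chromosome 2 at 27676445 to 27763319, and no island lay in its 86875 bp or within 50 kb. The nearest was 88282 bp away, with 13 versus 1 reads. Of the 2879 protein-coding genes at least as long as Rxra, 43.0% had no island, and reads outside islands were not analysed here, so a signal below the caller's threshold was not detectable. Rxrb lies on chromosome 17 at 34031812 to 34038403 among closely packed genes and had 3 islands with 72 versus 33 reads, a pooled enrichment of 1.09 (0.714 to 1.70), and none passed. The one with the lowest FDR (0.0627), at 34031201 to 34032800, covered both Rxrb starts and the start of the zinc transporter gene Slc39a7, with 37 versus 14 reads and an enrichment of 1.32 (0.699 to 2.65). The others lay at H2-Ke6, with 22 versus 10 reads, and inside Ring1, with 13 versus 9, and all 3 were within 10 kb of another gene.

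Vdr, the vitamin D receptor gene, lies on chromosome 15 at 97854427 to 97908296 and had 1 island, 4427 bp outside the gene beyond its 3′ end, at 97849201 to 97850000. It had 13 versus 4 reads, an enrichment of 1.63 (0.503 to 6.85) and an FDR of 0.0535, just over the threshold. The same island is within 10 kb of Hdac7, which encodes a class IIa histone deacetylase, and the Vdr start was 58296 bp away. Nr1h2 lies on chromosome 7 at 44549616 to 44553968 and had 2 islands with 53 versus 21 reads, a pooled enrichment of 1.26 (0.750 to 2.21). The one over its start, 44552601 to 44554600, had 19 versus 9 reads and an enrichment of 1.06 (0.456 to 2.65). The other, at 44547601 to 44549200, covered the start of the DNA polymerase gene Pold1, with 34 versus 12 reads, an enrichment of 1.42 (0.717 to 3.01) and an FDR of 0.0337.

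**Figure D2:**
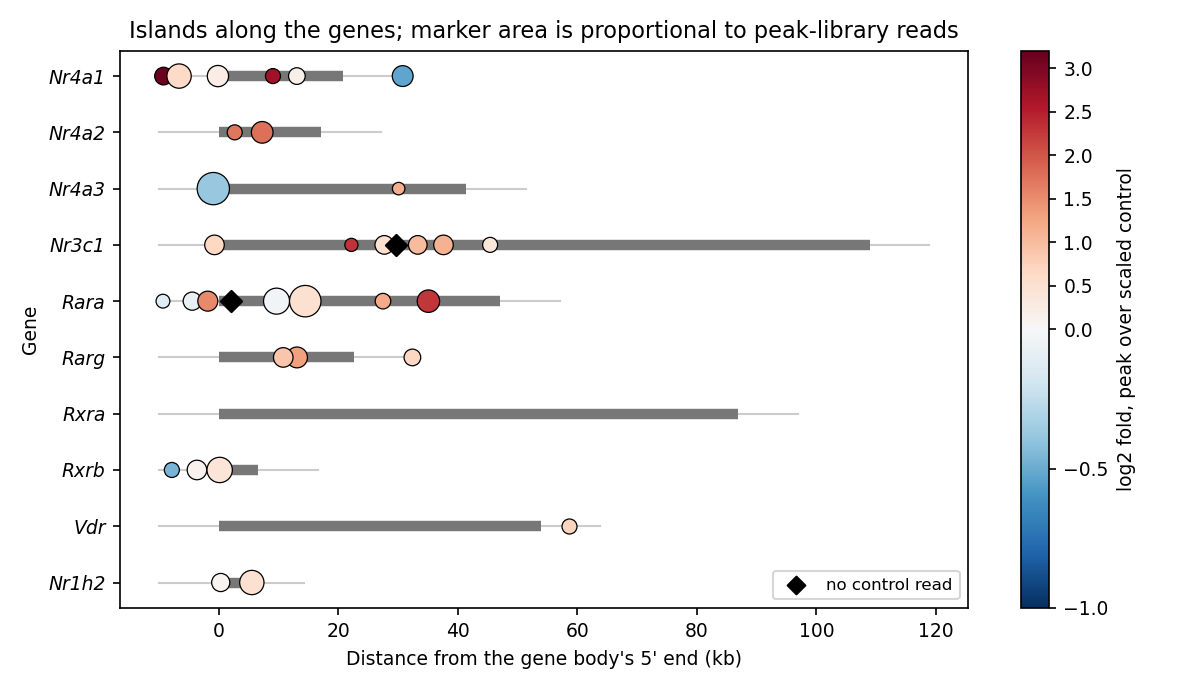
Islands placed by the distance of their midpoint from the 5′ end of each gene body (horizontal axis, kb); thick lines are gene bodies, thin lines the 10 kb on either side, marker area follows peak-library reads, colour the log2 enrichment, and diamonds are islands without control reads. For Nr3c1, whose strand is not in the tables used, distance runs from the end at the higher coordinate. The 7 Nr3c1 islands lie in 1 side of the gene, and Rxra has none.

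In order of pooled enrichment the genes ran Nr4a2, Nr3c1, Rarg, Vdr, Rara, Nr4a1, Nr1h2, Rxrb and Nr4a3. The interval of each gene overlapped that of its neighbours in this order. The lower limit was above 1 for Nr4a2, Nr3c1, Rarg and Rara, and the intervals of the other 5 genes included 1. Since islands are called on peak-library reads, a limit above 1 is not a test of enrichment. The median of the 9 pooled enrichments was 1.56, beside 1.603 (quartiles 1.25 and 2.22) over protein-coding genes with an island. Nr4a2 lay above that upper quartile, and Rxrb and Nr4a3 lay below the lower one. With the 2 libraries' island totals set equal, all enrichments drop by 0.36 (log2), and Rxrb (0.854) and Nr1h2 (0.988) then fall below 1 along with Nr4a3. The lower limits of Rara (0.917) and Rarg (0.879) then lie below 1 too, and the upper limit of Nr4a3 is 0.994. Without scaling all enrichments are higher by 1.00 (log2), and all 9 lower limits lie above 1. With islands near other protein-coding genes left out, the lower limit was 0.722 for Rarg and 1.15 for Nr4a1, and with 50 kb on either side it was 1.05 for Nr4a1. The order of the genes does not depend on the scaling factor. Island density was highest at Nr4a1, 1.47 islands per 10 kb of locus, then Rara with 1.19 and Rxrb with 1.13. Over genes with an island the median was 0.364 and the upper quartile 0.626. These densities include islands outside the gene body, 3 of 6 at Nr4a1, 3 of 8 at Rara and 2 of 3 at Rxrb, some of them in neighbouring genes.

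**Figure D3:**
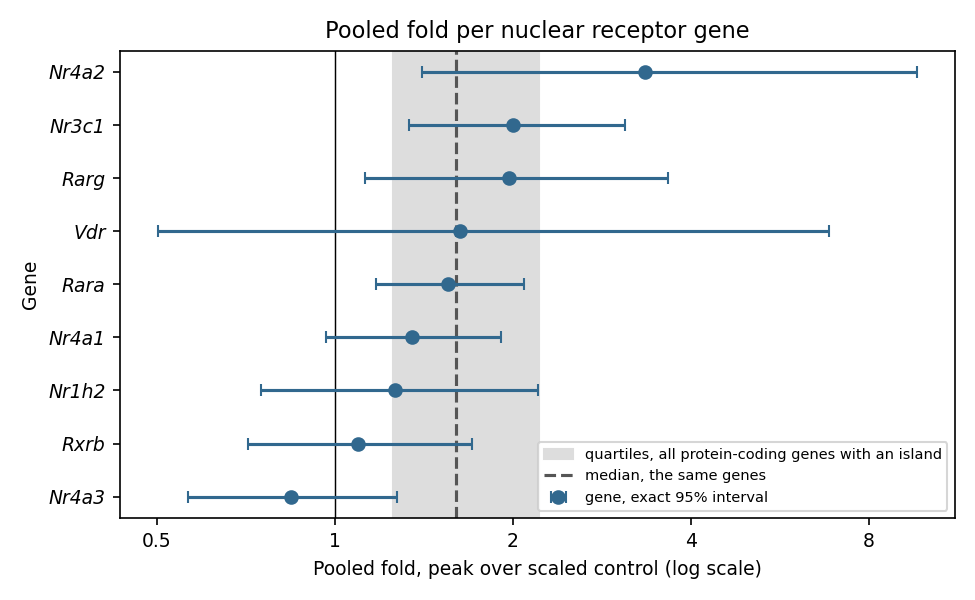
Pooled fold of peak over scaled control reads for the 9 receptor genes with islands (log axis), with exact 95% intervals; the grey band and dashed line are the quartiles and median over all protein-coding genes with an island. Nr4a2 is highest at 3.34 and Nr4a3 lowest at 0.843.

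Where an island lay relative to a transcription start went with its enrichment. Of the 27 islands at the 9 genes with start windows, 9 covered a start of a protein-coding gene, the receptor's own in 6 and a neighbour's in 3. Only starts with a RefSeq window count. The island over the outer end of Nr4a1 and the one just before the most downstream Rara start are therefore among the others. Those 9 had 274 versus 135 reads, a pooled enrichment of 1.02 (0.824 to 1.26), and ran from 0.696 to 1.84. The other 18 had 373 versus 101 reads, a pooled enrichment of 1.85 (1.48 to 2.33). The ratio of the pooled enrichments, which no scaling factor affects, was 0.55 (exact 95% interval 0.402 to 0.751). Of the 9 islands 2 passed, against 52.3% of all islands over starts, and of the 18 others 13 did (72.2%), near the 67.2% of all others.

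The lower enrichments came with more control-library reads: the median was 12 control reads over starts and 4 elsewhere, while median peak-library reads were 25 and 17. Over all nuclear islands under 200 peak-library reads on chromosomes with start windows, the 6051 over starts had a pooled enrichment of 1.41 (1.40 to 1.43) and the 12901 others 1.798 (1.78 to 1.81), a ratio of 0.786. Enrichment and position thus went together in the whole table too. Without Nr4a3, which holds the largest single island, the receptor islands over starts pooled to 1.12 and the ratio was 0.606 (0.431 to 0.853), an interval that includes the 0.786 of the whole table. These intervals leave out the spread between genes. Of the 15 listed starts 8 lay under an island, in 6 of the 9 genes, against 36.2% of protein-coding starts. Enrichments below 1 were found in 6 of the 34 islands, against 10.2%, and 2 had no control read, against 5.69%. No cause of the association was tested.

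**Figure D4:**
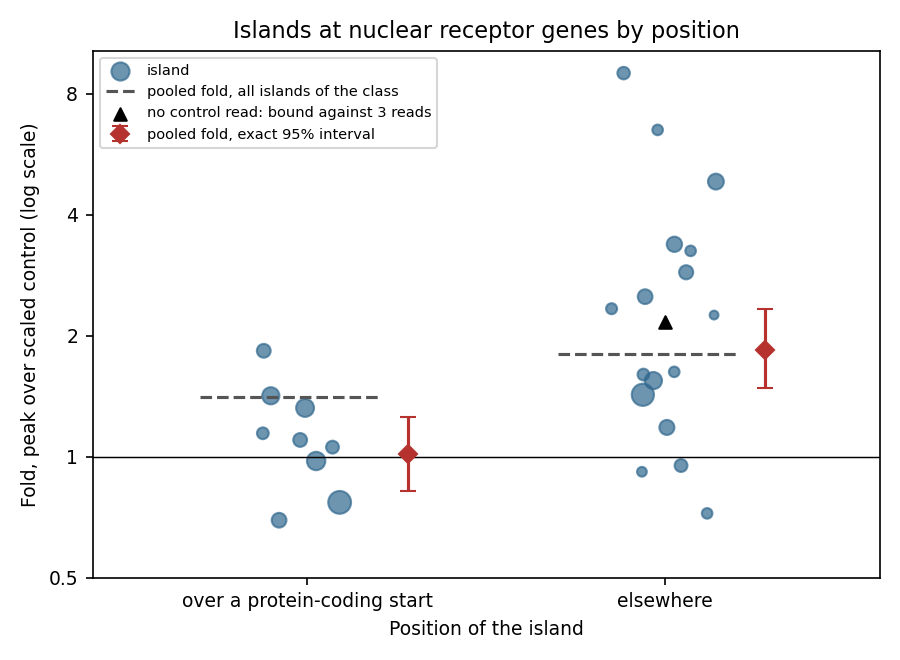
Enrichment of each island at the 9 receptor genes with start windows (log axis), split by whether it covers the start of a protein-coding gene. Point area follows peak-library reads. The triangle is the 1 island without control reads, at its ratio against a floor of 3 reads, which the key calls a bound. Diamonds are pooled enrichments with exact 95% intervals, and dashed lines are the pooled enrichments of all islands of each class. The 9 islands over starts pool to 1.02 and the other 18 to 1.85.

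Genes that work with these receptors fell into lists with many islands and lists with few. The counts are to be read against the 54.7% of all protein-coding genes with an island and the 40.3% with a passing one. The lists too were chosen with earlier results of these data known, so no excess over these shares was tested. Genes given with an enrichment are those with the highest pooled enrichment in their list, among those with 20 or more peak-library reads. They are not typical of the list, and their intervals are not corrected for that choice. Of 38 other nuclear receptor genes, 20 had an island and 17 had a passing one, close to the background, with a median pooled enrichment of 1.68. Rora, a receptor needed for group 2 innate lymphoid cells, had 15 islands with 385 versus 59 reads and 3.27 (2.48 to 4.37). Nr2c1, an orphan receptor, had 2 islands and 4.51 (1.62 to 17.4), and Nr6a1, the germ cell nuclear factor, had 3 and 2.003 (1.24 to 3.36). The xenobiotic receptor gene Nr1i2 and Nr2e1 had none. Among 20 coregulators, the proteins that receptors recruit to open or close chromatin, 19 had an island and 16 had a passing one (median 1.48). The corepressor gene Ncor1 had 8 islands and 1.94 (1.38 to 2.79), Nrip1, a corepressor that hormone-bound receptors recruit, 11 and 1.94 (1.45 to 2.65), Ncoa6, a coactivator, 2 and 2.92 (1.22 to 8.50), and the demethylase gene Kdm1a 2 and 1.89 (0.889 to 4.49). The acetyltransferase gene Crebbp had none.

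The lists for hormone and vitamin handling differed in the same way. All 15 glucocorticoid pathway and response genes had an island and 13 had a passing one (median 1.70). Hsd11b1, whose enzyme regenerates active glucocorticoid, had 25 versus 1 reads in 2 islands, an enrichment of 12.5 (2.05 to 514). The chaperone gene Hsp90aa1 stood at 2.15 (1.31 to 3.70), the kinase gene Sgk1 at 2.75 (0.935 to 11.0) and Zbtb16, which encodes PLZF, at 1.79 (0.973 to 3.50). Of 18 retinoid metabolism and response genes 7 had an island and 5 had a passing one. Tgm2, which encodes a transglutaminase, had 39 versus 4 reads and 4.88 (1.76 to 18.8), the retinol dehydrogenase gene Rdh10 23 versus 3 and 3.84 (1.16 to 19.97), Dhrs3, which encodes a retinal reductase, 68 versus 15 and 2.27 (1.28 to 4.28), and the repressor gene Hic1 84 versus 23 and 1.83 (1.14 to 3.04). The retinaldehyde dehydrogenase genes Aldh1a1 and Aldh1a2, which make retinoic acid, had none.

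Of 10 vitamin D genes 3 had an island, each with a passing one. Cyp27b1, which makes the active hormone, had 49 versus 11 reads and 2.23 (1.14 to 4.76), and Cubn, an uptake receptor, had 84 versus 21 reads and 2.003 (1.23 to 3.40). Cyp24a1, which degrades the hormone, and Cyp27a1 had none. Of 12 oxysterol and LXR genes 9 had an island and 8 had a passing one. The cholesterol exporter gene Abca1 had 24 versus 3 reads and 4.01 (1.22 to 20.8), Cyp46a1, a cholesterol hydroxylase gene, 31 versus 3 and 5.17 (1.61 to 26.5), Srebf1, a lipogenic factor, 39 versus 8 and 2.44 (1.12 to 6.05), and the desaturase gene Scd1 43 versus 11 and 1.96 (0.993 to 4.21). Apoe and Cyp7b1 had none.

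All 20 immediate-early genes, the class to which the NR4A genes belong, had an island, and 14 had a passing one. Their median pooled enrichment of 1.24 was below the 1.603 of all genes with an island. Ier3 stood at 2.32 (1.06 to 5.76), Fosb at 1.74 (1.16 to 2.66), Maff at 1.61 (1.08 to 2.43) and Ier5 at 1.41 (0.855 to 2.41). All 12 listed regulators of NR4A transcription had a passing island (median 1.73). Among them were the class IIa deacetylase genes Hdac5, with 5 islands and 2.07 (1.30 to 3.42), and Hdac4, with 3 and 2.04 (1.14 to 3.86), the calcium-responsive factor Nfatc2, with 11 and 2.02 (1.47 to 2.84), and the cyclic AMP-responsive factor Creb1, with 6 and 2.02 (1.41 to 2.96). The lists differ in gene length, which was not adjusted for. Islands near a neighbouring gene were not left out of the lists, so an island counted for a list gene may belong to the neighbour.

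**Figure D5:**
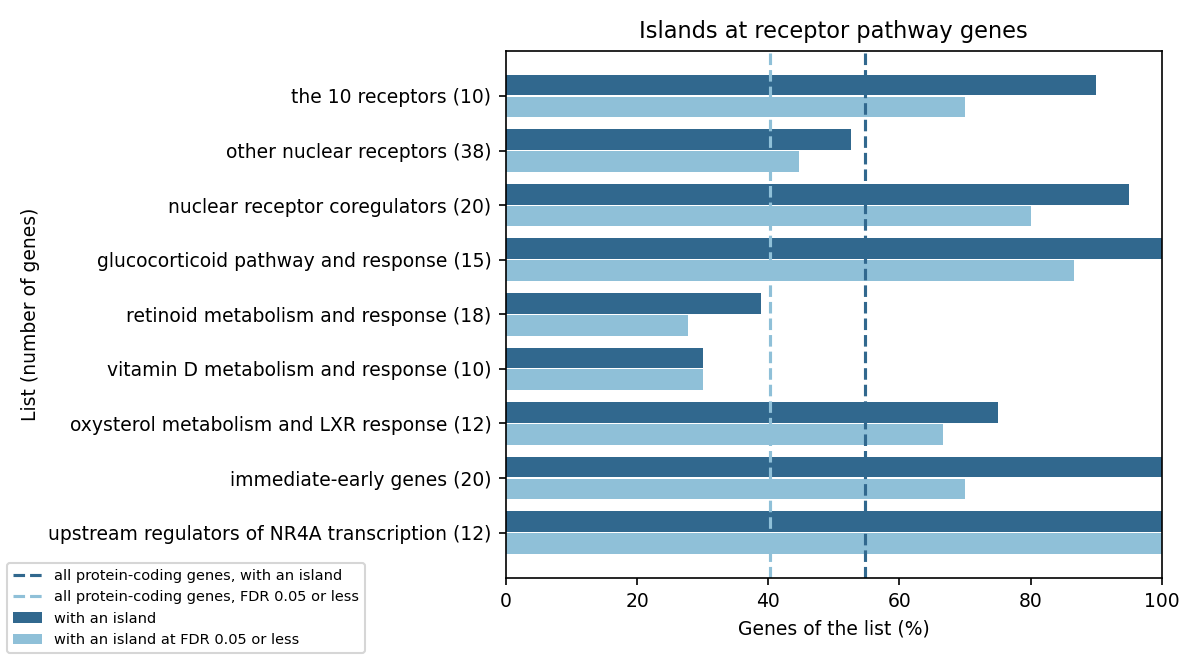
Share of the genes of each list with an island and with a passing island (horizontal axis, %), for the 10 receptors and 8 lists of related genes; dashed lines are the shares over all protein-coding genes, 54.7% and 40.3%. The glucocorticoid, immediate-early and NR4A regulator lists reach 100%, and the retinoid and vitamin D metabolism lists lie below both lines.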

How the data were processed

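The submitters' processing notes name Bowtie2 2.4.2, SICER 2.0 and mm10. The caller's window and gap, and how duplicates were treated, are not stated there. The deposited counts are unscaled reads of each island in a peak and in a control column. The fold was deposited as a ratio, and its recomputation from the counts gave 1 scaling factor, 1.997. The p-value and FDR per island were deposited by the authors. The planned comparison of genotypes was not made, since the header ties no column to a sample.

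Positions count from 1. Gene bodies, starts and sequences came from RefSeq tables of GRCm38.p6, and all 10 receptor genes and all listed genes matched by symbol. Start windows were used for all chromosomes with islands at the receptor genes except chromosome 18. The 10 genes and the lists were chosen with earlier results of these data known. Besides the receptors, each list gives up to 4 genes with the highest pooled fold among those with 20 or more peak-library reads, and the first 2 without an island; 1 gene is not reported here. For each receptor the islands with the lowest FDR and the most reads, and those over starts, were named; other islands were added after their values were seen. Pooled folds left out islands with 200 or more peak-library reads. The exact binomial test (scipy 1.17.1) was tested on simulated data. Alternatives in locus, overlap, read minimum, neighbouring genes, FDR, test and scaling were run.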

Additional observations from a re-analysis of the deposited data

How the results depend on the processing

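Rxra had no island under any locus tried. The 9 receptor genes with an island became 5 when islands within 10 kb of another protein-coding gene were left out. Nr4a2, Rxrb, Vdr and Nr1h2 had no island left in that setting. The 7 genes with a passing island became 4 at 1e-05 and 0 by the exact conditional binomial test with adjusted p. The 34 islands became 57 with 50 kb on either side, 18 with at least 20 peak-library reads and 17 away from other genes. The 20 passing islands became 31, 11 and 12 in the same settings, 6 at 1e-05 and 0 by the binomial test. The pooled enrichment of 1.44 was 1.13 with equal totals and 2.88 without scaling, and the median over genes of 1.56 was 3.11 without scaling. The other 32 recomputed values of these 6 results stayed within 1.5 times (counts) or within the interval (folds). For the median over genes that interval was a wide one, 0.965 to 2.21, the medians of the genes' lower and upper limits. Its value of 1.22 with equal totals is therefore counted among the 32. The start and other islands of the receptors, recomputed after the data were seen, pooled to 0.794 and 1.45 with equal totals and 2.03 and 3.69 without scaling. With 50 kb on either side 6 of 10 vitamin D genes and 5 of 6 epithelial genes had an island. With the gene body alone 14 of 38 other nuclear receptor genes, 5 of 18 retinoid, 2 of 10 vitamin D and 8 of 12 oxysterol genes had one. The coregulator, glucocorticoid, immediate-early and NR4A regulator lists kept their counts in that setting. A median of 5.5 control reads per island leaves wide intervals. No paired analysis was possible because each group has 1 library.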
